A study of Mus musculus with 9 samples.

Results

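Flt1 and 6 other genes of the vascular endothelial growth factor (VEGF) system were followed across 9 microarrays of sorted mouse microglia. The genes were the receptors Flt1 and Kdr, the coreceptors Nrp1 and Nrp2, and the ligands Vegfa, Vegfb and Pgf. Each was read from its own single-symbol probe set, and together they are 7 of the 19938 genes that had one. The set was drawn up around Flt1, which was chosen by its measured level in these arrays: higher in mice with the common variant of human TREM2 than in mice without TREM2, while the other endothelial genes, in the wording of the rule, did not move. The values of the 7 genes in that comparison therefore describe the choice, and nothing is read from which of them passed a threshold there.

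All mice carried 5XFAD, a set of transgenes that causes amyloid to build up in the brain, and all were deficient in mouse TREM2, a lipid-binding receptor of microglia. Microglia, sorted as CD45+ CD11b+ cells at 8.5 months of age, came from 3 mice with the R47H variant of human TREM2 (R47H), 3 mice with its common variant (CV) and 3 mice with no human TREM2 (KO). Mouse 1 of each group was female and mice 2 and 3 were male. Which promoter drives human TREM2 was not stated, and the sort markers are also carried by monocytes, neutrophils and border macrophages.

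VEGF-A acts mainly through the receptor tyrosine kinase Kdr (VEGFR2), which drives the growth and permeability of blood vessels. Flt1 (VEGFR1) binds VEGF-A more tightly but signals weakly, is also made as a soluble form that traps the ligand, and is carried by monocytes and macrophages, where it mediates migration towards VEGF-A and placental growth factor. Vegfb and Pgf bind Flt1 and not Kdr. The neuropilins Nrp1 and Nrp2 have short intracellular parts and hold VEGFs and semaphorins beside their signalling receptors.

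All values are log2 as deposited, and a difference of 1 is a doubling. The labelled cell type was checked first: 11 microglial markers averaged 11.55 to 11.65 over the R47H mice, 11.44 to 11.50 over the CV mice and 11.60 to 11.74 over the KO mice. The CV mice thus lay below all R47H and KO mice. In CV minus KO all 11 were negative, and 8 were lower without overlap, against 8.05% of all tested genes. Limma called 0 of the 11 there, against 1.21% at an adjusted p under 0.05. Of 22 endothelial markers on the array, 6 reached the median of all probe sets (5.31). The highest of the 22 was Cd34, which averaged 10.28 in R47H, 10.51 in CV and 10.18 in KO. The lowest was Slco1a4, at 3.01, 2.92 and 2.95 in the same order. Arrays measure RNA from many cells at once, so a change in the number of cells of a type and a change in RNA per cell cannot be told apart. Probes for Trem2 read 7.28 ± 0.03 in R47H, 7.15 ± 0.09 in CV and 7.16 ± 0.05 in KO (SD, n = 3 each), and whether they lie in the deleted part of the gene was not stated. Tyrobp, the adaptor of TREM2, averaged 12.73 in R47H, 12.72 in CV and 12.65 in KO.

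Flt1 (probe set 10535807, chr5:147561604-147726438 in GRCm38.p6) read 6.88, 6.28 and 5.69 in R47H mice 1, 2 and 3, 7.26, 6.88 and 7.11 in CV mice, and 5.92, 5.37 and 5.32 in KO mice. Every CV mouse was above every KO mouse, with a gap of 0.963 between the groups. KO mice 2 and 3 lay close to the median of all probe sets (5.31), so folds relative to KO start near the filter level. R47H mice were widely spread. Their highest value lay 0.00659 under the lowest CV value, and mouse 3 lay below the highest KO value. Group means were 6.28 ± 0.59 in R47H, 7.09 ± 0.19 in CV and 5.54 ± 0.33 in KO (SD, n = 3 each), so the order from high to low was CV, R47H, KO.

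CV minus KO was 1.55 ± 0.17 for Flt1 (SE of the limma model), a 2.92-fold higher level, and 29 of the 10795 genes tested had a larger difference. This is the contrast that chose the gene. Over all tested genes 1.21% were called in this fit, at a Benjamini-Hochberg adjusted p under 0.05. Flt1 and Nrp1 were the 2 called of the 5 members tested, a count that is not evidence about the set, since the choice of Flt1 rests on the same values. R47H minus CV, which also involves the CV values that chose the gene, was -0.80 ± 0.17.

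R47H minus KO was not used in that choice, although it shares the KO arrays. Flt1 was 0.74 ± 0.17 higher in R47H than in KO, a 1.68-fold difference with a 95% interval of 0.36 to 1.13, and the groups overlapped. It did not pass the adjusted threshold (limma, adjusted p = 0.271, unadjusted p = 0.00183). The difference was 0.59 to 0.96 when single mice were left out, and the adjusted p then lay between 0.0711 and 0.846.

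Kdr, the main signalling receptor for VEGF-A, stayed below the median of all probe sets on every array. Its probe set (10530692, chr5:75932827-75979072) read 4.94, 4.54 and 4.96 in R47H mice, 4.73, 4.88 and 4.76 in CV mice, and 4.88, 4.85 and 5.19 in KO mice. The 3 groups overlapped. Since the gene fell below the filter, its differences come from a fit of all 19938 genes. CV minus KO was -0.19 ± 0.14, and R47H minus KO was -0.16 ± 0.14 (adjusted p = 0.923), with a 95% interval of -0.49 to 0.15.

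Nrp1 (probe set 10576639, chr8:128358591-128505476) was at percentile 90.5 of all probe sets by its mean, against 65.1 for Flt1. It read 8.82, 8.68 and 8.54 in R47H mice, 8.91, 8.70 and 8.85 in CV mice, and 8.57, 8.38 and 8.32 in KO mice. As with Flt1, the CV and KO mice did not overlap. R47H overlapped both other groups for this gene. CV minus KO was 0.39 ± 0.07, a 1.31-fold higher level, and this gene left the called set whenever any 1 of the 9 mice was removed. R47H minus KO was 0.26 ± 0.07 (adjusted p = 0.489) and R47H minus CV was -0.14 ± 0.07 (adjusted p = 0.501).

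Nrp2, the coreceptor better known for VEGF-C and class 3 semaphorins, showed little spread among mice. Its probe set (10346843, chr1:62703317-62818692) read 7.05, 7.22 and 7.03 in R47H mice and 6.99, 7.13 and 7.13 in CV mice. All 3 KO arrays held one identical value, 7.08, which was the case for 1.92% of probe sets. R47H minus KO was 0.02 ± 0.07 (adjusted p = 0.988, 95% interval -0.14 to 0.19), and CV minus KO was 0.01 ± 0.07. The KO group therefore had an SD of 0, and the errors of these differences rest on the other 2 groups and on the limma model.

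**Figure D1:**
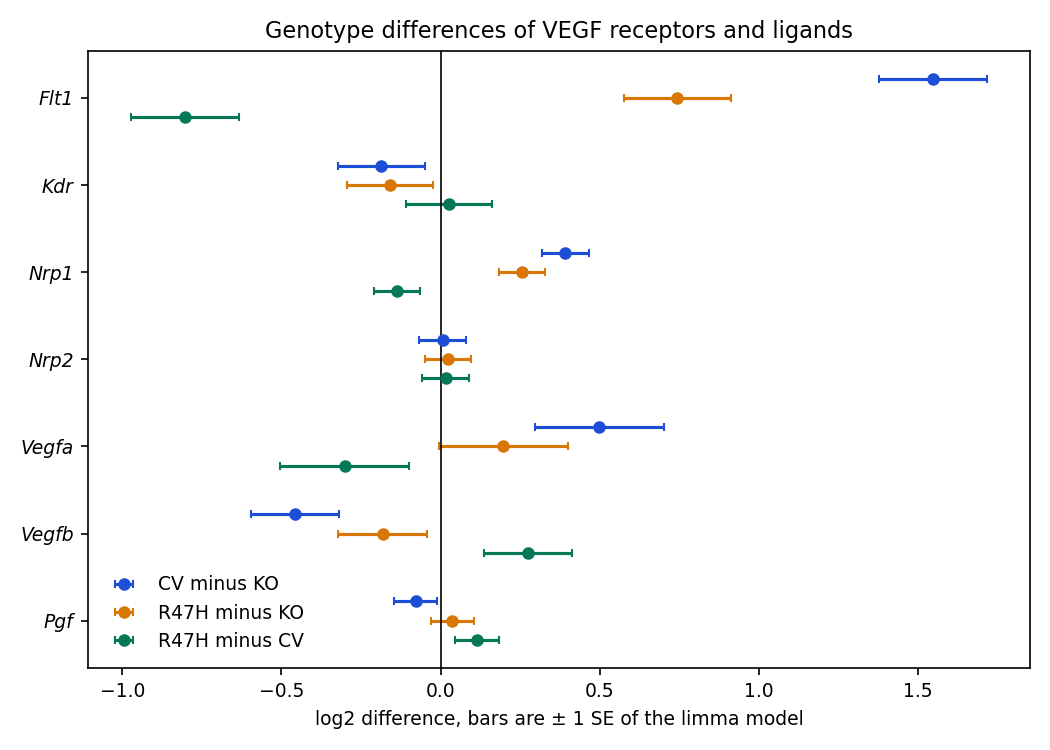
Log2 differences between genotypes (horizontal axis) for the 7 genes, with bars of 1 SE of the limma model on either side. Flt1 has the largest CV minus KO difference of the 7, at 1.55, Nrp1 follows the same order of differences at a smaller size, and Nrp2 lies at 0.01 to 0.02 in all 3 comparisons.

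Among the ligands, Vegfa (probe set 10451198, chr17:46016993-46032377), the main driver of vessel growth, read 6.58, 6.03 and 6.41 in R47H mice, 7.19, 6.38 and 6.34 in CV mice, and 6.43, 5.59 and 6.40 in KO mice. The highest value of all came from the CV female, and the genotypes overlapped. CV minus KO was 0.50 ± 0.20, and R47H minus KO was 0.20 ± 0.20 (adjusted p = 0.956). Without KO mouse 2, the lowest of the 9, R47H minus KO was -0.0053.

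Vegfb (probe set 10465559, chr19:6982472-6987651), the ligand that binds Flt1 and is best known in heart and muscle, ran in the other direction. It read 8.61, 8.55 and 8.45 in R47H mice, 8.20, 8.35 and 8.23 in CV mice, and 9.04, 8.75 and 8.36 in KO mice. CV mice were the lowest: they did not overlap R47H mice (gap 0.0938) and were below every KO mouse by 0.00289 or more. CV minus KO was -0.46 ± 0.14, and R47H minus CV was 0.27 ± 0.14 (adjusted p = 0.478). KO mouse 3 sat closest to the CV mice, and CV minus KO was -0.62 without it, where the gene entered the called set.

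Pgf (probe set 10401607, chr12:85166637-85177785), the other ligand of Flt1, lay at 4.20 to 4.32 in R47H mice, 4.09 to 4.23 in CV mice and 4.17 to 4.33 in KO mice. These values were at percentile 29.9 of all probe sets, below the filter. R47H minus KO was 0.04 ± 0.07 in the fit without the filter (adjusted p = 0.964).

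Flt1, whose separation led to its choice, Nrp1 (both higher) and Vegfb (lower) were the 3 of 7 genes without overlap between CV and KO mice. Over all tested genes the share was 14%, and nothing is read from the members' count here either. In R47H minus KO, limma called 0 of the 5 tested members, against 0.0834% of all tested genes, and 0 of 7 members had groups that did not overlap, against 7.11%. At an unadjusted p under 0.05, 613 genes passed in that comparison, Flt1 and Nrp1 among them. In R47H minus CV, 0 of 5 were called by limma, against 0.797% (1336 genes at an unadjusted p under 0.05), and 2 of 7 did not overlap (Flt1 lower, Vegfb higher), against 14.9%.

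The levels of Flt1 and Nrp1 followed each other from mouse to mouse. Over the 9 arrays their Pearson correlation was 0.968 and their Spearman correlation 0.983, and Nrp1 ranked 1 of 10794 genes in likeness to Flt1. The 9 points share genotype and sex, so this is a description of these arrays. After genotype means were subtracted, the Pearson correlation was 0.941 and the rank 8. Without the 2 mice farthest from the Flt1 median (CV mouse 1 and KO mouse 3) it was 0.953 with rank 6, and over single removals it was 0.958 to 0.985 with ranks from 1 to 9.

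**Figure D2:**
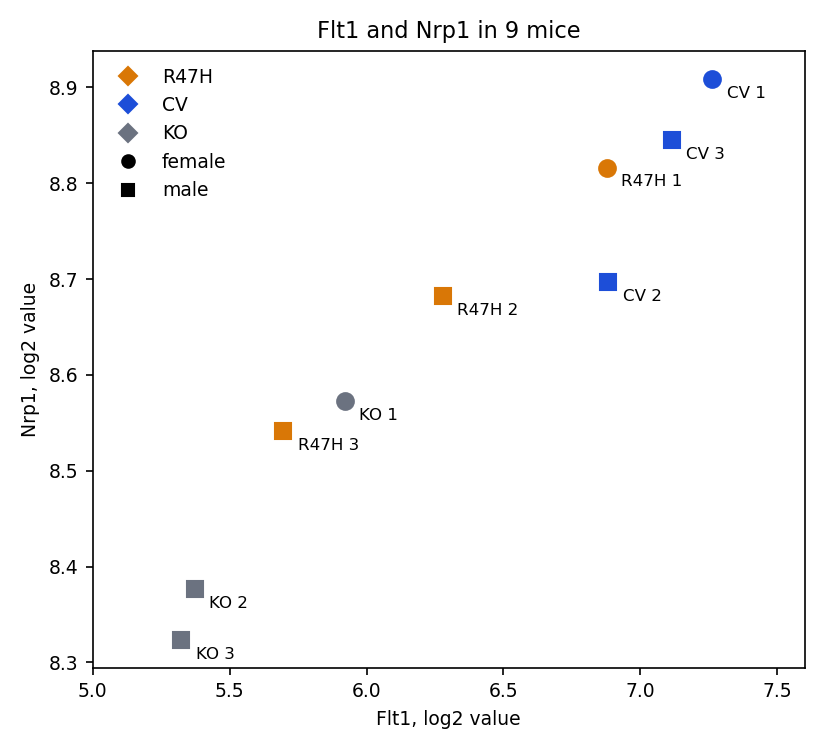
Flt1 (horizontal axis) against Nrp1 (vertical axis), log2 values, 1 point per mouse, with colour for genotype and shape for sex. KO mice lie at the lower left (Flt1 5.32 to 5.92, Nrp1 8.32 to 8.57) and CV mice at the upper right (Flt1 6.88 to 7.26, Nrp1 8.70 to 8.91). R47H mice run from the KO ranges (mouse 3, Flt1 5.69 and Nrp1 8.54) up to the edge of the CV points (mouse 1, Flt1 6.88 and Nrp1 8.82).

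After Nrp1, the genes most like Flt1 over the 9 arrays were Pgap1 (0.961), an enzyme that remodels GPI anchors, Rhoc (0.955), a small GTPase of the actin cytoskeleton, Apobec1 (0.949), an RNA-editing deaminase, and Wfdc17 (0.948). Within genotype the closest were Bin3 (0.983), the X-linked histone demethylase Kdm5c (0.977), the adaptor Sh3kbp1 (0.976), Tmem123 (0.967) and Ahnak2 (0.966). Each genotype has its only female as mouse 1, so likeness within genotype also reflects sex. The correlation with Flt1 over the 9 arrays was -0.491 for Kdr, 0.600 for Vegfa and -0.494 for Vegfb. Within genotype it was -0.239 for Kdr, 0.379 for Vegfa and 0.507 for Vegfb, which changed sign.

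A list of 17 amyloid-associated microglial genes ran alongside both receptors. Its mean was 9.96 to 10.35 in R47H mice, 10.29 to 10.62 in CV mice and 9.39 to 9.86 in KO mice. Over the 9 arrays this mean had a Pearson correlation of 0.947 with Flt1 and 0.966 with Nrp1, close to that of the pair. The mean of the 11 microglial markers ran the other way, at -0.873 with Flt1 and -0.857 with Nrp1. These correlations include the genotype differences, and none was computed within genotype. Limma called 9 of the 17 in CV minus KO, against 1.21% of all tested genes, all higher in CV, and 2 in R47H minus KO, against 0.0834%. The part of this wider difference in the likeness of Flt1 and Nrp1 was not tested.

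Because the levels of Flt1 and Nrp1 followed each other, the 250 bases before the start that the RefSeq promoter table on GRCm38.p6 uses for each are printed below, with Kdr as the receptor that stayed low. These starts lie inside the full gene extents given above, which begin further upstream in all 3 genes. Capitals mark matches on either strand to 6 motifs: the cyclic AMP response element TGACGTCA, the TATA box TATAAA, the ETS-factor core GGAAGT, the hypoxia-factor cores ACGTG and also GCGTG, and the GC box GGGCGG. In these 3 windows no matches overlapped.
Flt1 (chr5:147726012-147726261, minus strand): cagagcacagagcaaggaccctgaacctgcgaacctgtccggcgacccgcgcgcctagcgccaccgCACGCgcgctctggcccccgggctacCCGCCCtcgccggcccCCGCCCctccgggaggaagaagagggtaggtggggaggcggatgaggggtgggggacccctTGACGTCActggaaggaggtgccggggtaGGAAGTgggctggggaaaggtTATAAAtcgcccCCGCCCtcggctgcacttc
Nrp1 (chr8:128358823-128359072, plus strand): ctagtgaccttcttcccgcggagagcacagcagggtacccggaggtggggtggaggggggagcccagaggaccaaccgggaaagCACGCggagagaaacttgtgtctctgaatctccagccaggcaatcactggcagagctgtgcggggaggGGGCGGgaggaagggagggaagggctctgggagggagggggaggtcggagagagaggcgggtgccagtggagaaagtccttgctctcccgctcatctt
Kdr (chr5:75978456-75978705, minus strand): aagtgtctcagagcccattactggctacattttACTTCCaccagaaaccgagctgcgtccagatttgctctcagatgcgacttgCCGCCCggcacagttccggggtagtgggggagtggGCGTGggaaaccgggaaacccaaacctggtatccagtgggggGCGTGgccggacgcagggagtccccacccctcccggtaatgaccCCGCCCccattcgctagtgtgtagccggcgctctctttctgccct

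The Flt1 window held 1 TGACGTCA at position -81 from that start, a motif found in 1.55% of the 32851 promoter windows in the RefSeq table and in no other window of the 7 genes. It also held TATAAA at position -31 (12.4% of windows) and GGAAGT at position -52 (19.7%). The Nrp1 window held none of these 3 and had 1 GCGTG and 1 GGGCGG, both of which are in the Flt1 window too. GCGTG was in 28.2% of all windows and in 7 of the 9 windows of the 7 genes. GGGCGG was in 32.7% and in 8 of the 9. Vegfa and Pgf had 2 windows each, and counting either of them each motif was found for all 7 genes. ACGTG was in 16.6% of windows and in none of the 3 printed. GC content was 70.4% for Flt1, 64.4% for Nrp1 and 61.6% for Kdr, against a median of 52.4% over all windows.

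Flt1 is a standard endothelial marker, so the other markers of that cell type were set beside it. All 22 on the array differed by -0.56 to 0.33 in CV minus KO, with 8 positive and a median of -0.06, where Flt1 differed by 1.55. The rule that chose Flt1 already held this contrast, so it describes the choice and is not a result. Only 6 of the 22 reached the filter. Pecam1, a junction protein also present on leukocytes (5.70 in R47H, 5.42 in CV, 5.98 in KO), and Eng, a coreceptor for TGF-beta family ligands that macrophages also carry (8.28 in R47H, 7.82 in CV, 8.30 in KO), were lower in every CV mouse than in every KO mouse. The same held for 8.05% of all tested genes, and nothing is read from these 2 of the 6. The highest difference was the sialomucin Cd34 (10.28, 10.51 and 10.18 in the same order). The mean level of all 22 per mouse was 5.00 to 5.04 in R47H, 4.93 to 5.00 in CV and 5.01 to 5.10 in KO, so the CV mice lay just below the KO mice without overlap. No background share was computed for such a list mean. In R47H minus KO the differences of the 22 ran from -0.28 to 0.28, and limma called 0 of the 6 tested, against 0.0834% of all tested genes. Of 12 mural cell markers 3 were tested. Anpep, an aminopeptidase also carried by myeloid cells, was the only one called in CV minus KO (2.08), against 1.21% of all tested genes.

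**Figure D3:**
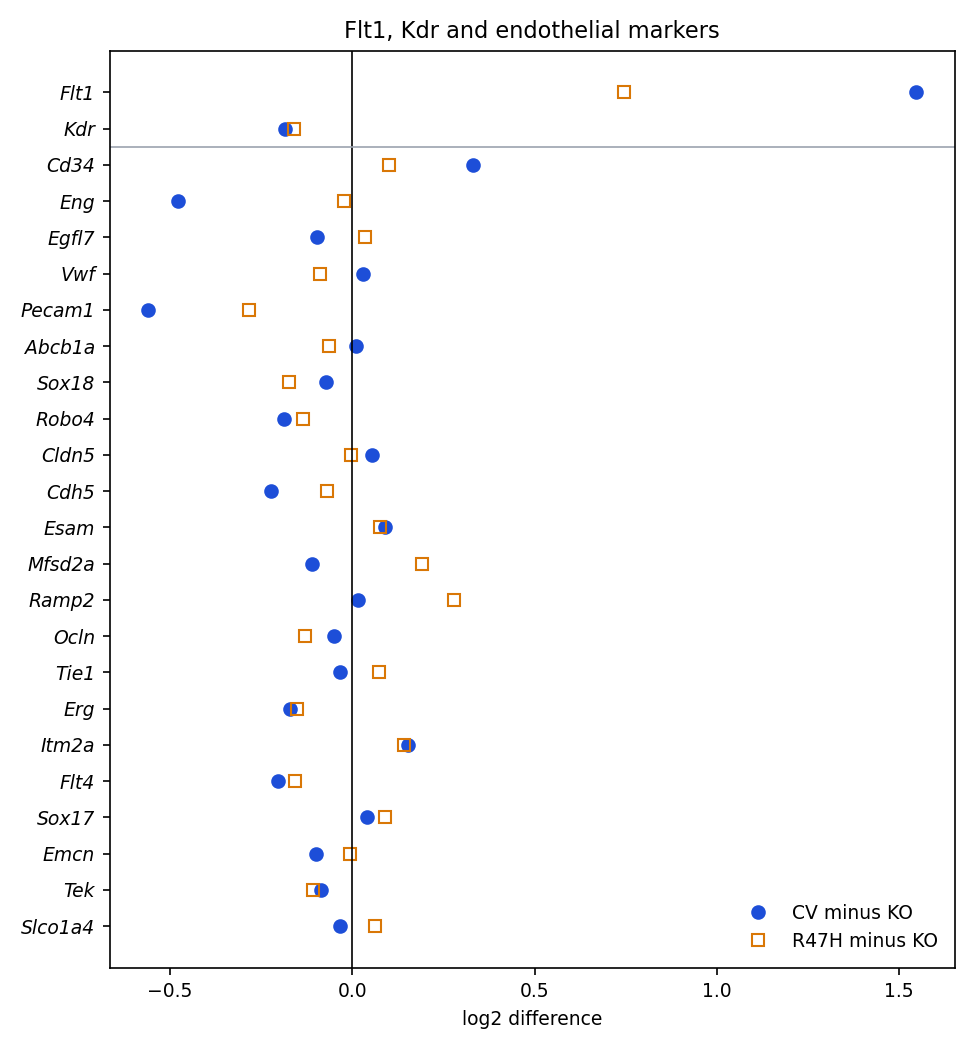
Log2 differences (horizontal axis) of CV minus KO (filled) and R47H minus KO (open) for Flt1 and Kdr, above the line, and for the other endothelial markers on the array, below it. Flt1 lies at 1.55 and 0.74, while the 22 markers lie between -0.56 and 0.33 in CV minus KO, a contrast that was part of the choice of Flt1.

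Markers of other myeloid cells were read in the same mice. In CV minus KO all 12 neutrophil markers and all 8 monocyte markers on the array had positive differences. Limma called 0 of the 8 tested neutrophil markers and 1 of the 6 tested monocyte markers (Fn1), against 1.21% of all tested genes. In that comparison 1422 genes passed an unadjusted p under 0.05. The filter used the mean over all 9 mice, so a marker high only in CV could pass it. Fn1 was such a marker (4.91 in R47H, 7.26 in CV, 5.06 in KO). The counts of tested markers therefore partly reflect the filter. In the fit without the filter, limma called 0 of the 12 and 1 of the 8, against 0.502% of all genes. The mean of 12 neutrophil markers was 5.98 to 6.98 in R47H mice, 7.92 to 8.81 in CV mice and 5.34, 5.77 and 8.77 in KO mice 1, 2 and 3, and 8 of the 12 reached the filter. KO mouse 3 lay within the CV range of this mean. In that mouse Flt1 was 5.32, the lowest of all 9 mice, and Vegfb was 8.36, the lowest of the KO mice. Flt1 CV minus KO was 1.53 without it. The mean of 8 monocyte markers was 5.26 to 5.48 in R47H, 6.30 to 6.73 in CV and 5.29 to 6.27 in KO, with 6 of the 8 reaching the filter. Border macrophage markers mostly ran the other way in CV minus KO, with 8 of the 10 tested negative and 2 positive (median -0.31). Limma called 1 of the 10, Ms4a7, higher (0.82, adjusted p = 0.0423), against 1.21% of all tested genes. Without the filter it called 0 of 11, against 0.502%. The mean of these 11 was 7.52 to 7.63 in R47H, 7.22 to 7.42 in CV and 7.32 to 7.53 in KO. The part of these cells in the Flt1 and Vegfb differences was not tested.

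**Figure D4:**
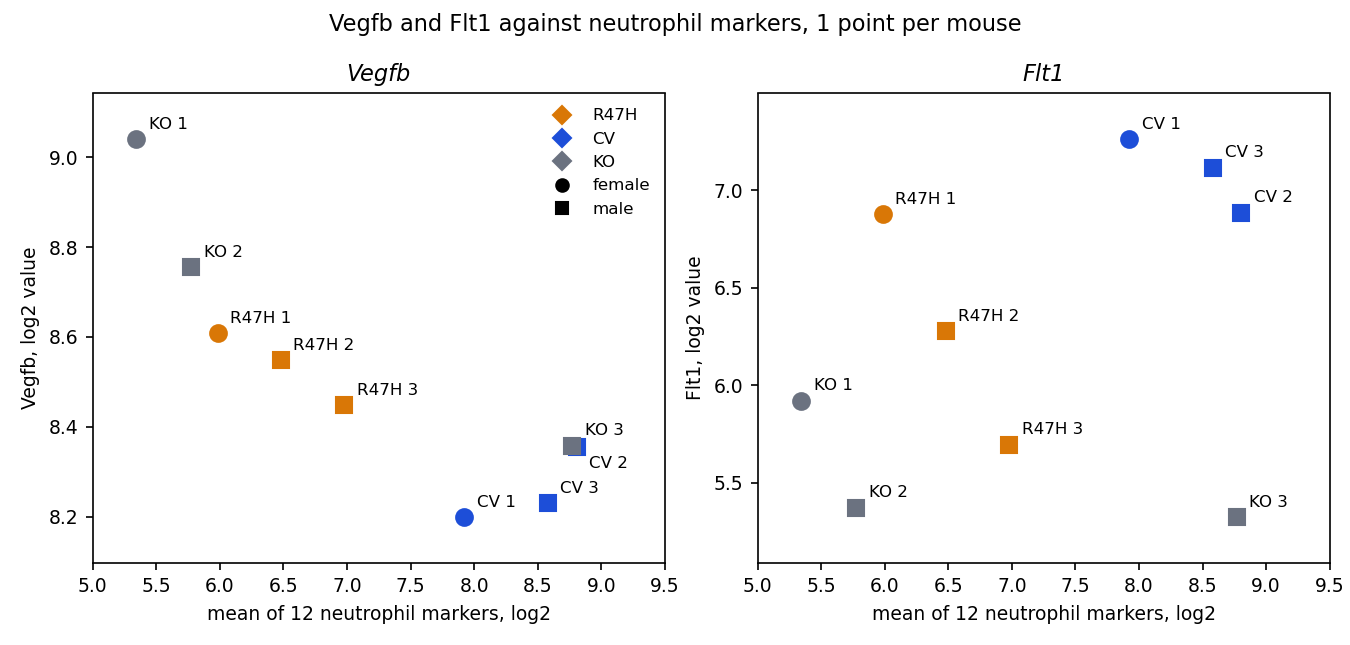
Vegfb (left) and Flt1 (right), log2 values on the vertical axes, against the mean log2 value of 12 neutrophil markers (horizontal axes), 1 point per mouse, with colour for genotype and shape for sex. KO mouse 3, at 8.77 on the horizontal axis, lies near the CV mice for Vegfb (8.36) and at the lowest Flt1 value (5.32).

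Females stood above both males of their own genotype in all 3 genotypes for Flt1, Nrp1 and Vegfa, a pattern found in 8.28% of tested genes. For Vegfb this held in 2 of 3 genotypes, and for Kdr, Nrp2 and Pgf in none. Female minus male, over 3 females and 6 males, was 0.58 ± 0.15 for Flt1 (adjusted p = 0.232), 0.54 ± 0.17 for Vegfa (adjusted p = 0.329) and 0.19 ± 0.06 for Nrp1 (adjusted p = 0.342). Limma called 0 of the 5 tested members, against 0.0648% of all tested genes (1187 genes at an unadjusted p under 0.05). Only Vegfa had sexes that did not overlap, against 3.69% of genes. The neutrophil marker mean was lower in the female than in both males in every genotype.

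The rest of the pathway was read from lists of its genes. The lymphatic members Vegfc, Vegfd and Flt4 were all below the filter. Of 31 tested genes that act downstream of VEGF receptors, 0 were called by limma in any genotype comparison. Over all tested genes 1.21% were called in CV minus KO, 0.0834% in R47H minus KO and 0.797% in R47H minus CV. At such shares a count of 0 is not a result about this list. Its median in CV minus KO was -0.04, against -0.02 over all tested genes. In that list Prkca, a protein kinase C, was -0.49 ± 0.10 (adjusted p = 0.0678) and Ptgs2, the inducible cyclooxygenase, was 0.62 ± 0.16 (adjusted p = 0.124) in CV minus KO. Of 7 tested semaphorins and plexins, which also bind neuropilins, 0 were called, and the same shares over all tested genes apply.

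Hypoxia is the classical inducer of Vegfa. Of 19 tested hypoxia targets 0 were called in any genotype comparison, where the shares over all tested genes were 0.0834% to 1.21%. A count of 0 is near those shares and is not a result about these genes. Their median in CV minus KO was -0.04, against -0.02 over all tested genes. Ndrg1, one of these targets, read 6.66 ± 0.16 in R47H, 5.92 ± 0.26 in CV and 5.92 ± 0.24 in KO (SD, n = 3 each), with R47H minus KO 0.74 ± 0.15 (adjusted p = 0.193). Of 8 tested oxygen-sensing genes 1 was called, in R47H minus KO (0.0834% of all tested genes) and in R47H minus CV (0.797%). Arnt, the partner of the hypoxia-inducible factors, fell in R47H: it read 7.41 ± 0.16 in R47H, 8.12 ± 0.07 in CV and 8.14 ± 0.11 in KO (SD, n = 3 each). Its R47H minus KO was -0.73 ± 0.08 (adjusted p = 0.0221) and its R47H minus CV -0.71 ± 0.08 (adjusted p = 0.0119). The call against KO held in only 1 of 9 single removals, that of R47H mouse 2 (adjusted p 0.0462 to 0.12 over the removals). The call against CV was lost without R47H mouse 1 or any 1 of the CV mice (adjusted p 0.0101 to 0.0847 over the removals). Hif1a, the oxygen-regulated subunit, was 0.03 ± 0.07 in R47H minus KO (adjusted p = 0.981). R47H mice also carried more oligodendrocyte marker RNA (mean of 9 markers 6.93 to 7.33 in R47H, 5.82 to 6.19 in CV and 5.84 to 6.55 in KO). Astrocyte marker RNA was higher in R47H mice too (mean of 10 markers 5.87 to 6.14 in R47H, 5.28 to 5.44 in CV and 5.32 to 5.68 in KO). The part of both in the R47H values was not tested.

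Among other vessel-directed genes, 3 rose in CV relative to KO, where 0.954% of all tested genes were called higher. Among 10 tested angiogenic ligands and receptors outside the VEGF family, 1 was called: Cxcr4, the receptor for the chemokine Cxcl12, rose by 1.30 ± 0.15 (adjusted p = 0.00461), at 9.84 ± 0.16 in R47H, 10.63 ± 0.04 in CV and 9.32 ± 0.36 in KO (SD, n = 3 each). Among 11 tested genes of matrix and VEGF release 2 were called. Plau, the urokinase that frees matrix-bound growth factors, rose by 0.97 ± 0.11 (adjusted p = 0.00461). Mmp14, a membrane-bound metalloproteinase, rose by 0.62 ± 0.08 (adjusted p = 0.00693, 0.0502 without CV mouse 1) and was the only one of these 3 called in R47H minus CV, where it fell by 0.54 (SE 0.08, adjusted p = 0.0235). All 3 calls in CV minus KO were lost when every probe set was tested on its own (adjusted p 0.072 to 0.0727). The call for Mmp14 in R47H minus CV was lost without R47H mouse 1 or 3 or any 1 of the CV mice (adjusted p 0.0246 to 0.146 over the 9 removals). Neutrophil and monocyte markers were higher in the same CV mice, as given above, and their part in these differences was not tested.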

How the data were processed

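Expression was measured on 9 Affymetrix arrays, 1 per mouse, from 2 ng of total RNA of sorted cells, per the labels' protocols. The deposited table holds log2 values for 35556 probe sets, the scale being taken from the range of 1.31 to 13.9. No label or header states the authors' background correction, normalization or probe summary: not given in the sources used here. Array medians were 5.28 to 5.35 and correlations between arrays 0.981 to 0.990. On 2 or more arrays, 51.9% of probe sets held an identical value.

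Values were used as deposited. Probe sets with a single symbol in the platform annotation (21789, against 1621 with several and 12146 with none) were kept, the highest-mean one per gene. Genes whose mean reached the overall probe-set median (5.31) were tested, 10795 in all. Kdr and Pgf lay below and were taken from a fit without the filter. Linear models with genotype and sex were fitted in limma 3.58.1 (R 4.3.3; lmFit and eBayes, 5 residual and 3.73 prior degrees of freedom), two-sided, with Benjamini-Hochberg adjustment over all tested genes and calls at 0.05. The model was tested on simulated data. The median residual SD was 0.12, and array number limits precision. An exact permutation test of 3 against 3 mice cannot go below 0.1.

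The members and the 18 lists (262 entries, 245 on the array, 161 tested) were chosen with earlier results of these data known. Besides the members, the rule named Trem2 and Tyrobp, up to 4 tested members per list with the smallest F-test p, and the 5 genes most correlated with Flt1, over all arrays and within genotype. Promoter windows and gene positions come from RefSeq tables on GRCm38.p6. Alternatives covered the sex term, the samples fitted, normalization, the filter, the probe-set rule, the variance model and single removals.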

Additional observations from a re-analysis of the deposited data

How the results depend on the processing

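The count of members called in CV minus KO, 2, was 1 with no sex term, with a replicate block in place of sex, with only the 2 groups compared, with array medians subtracted, with no filter and with the 75th percentile filter, and 0 when every probe set was tested on its own. The 75th percentile filter removed Flt1 (percentile 65.1), so Flt1 was not the member called there. Single removals gave 1 to 2. The other 3 comparisons gave 0 members under every alternative run. Over all tested genes, CV minus KO (131 called) gave 77 with no sex term, 54 with only the 2 groups, 18 with every probe set and 59 to 172 over single removals. R47H minus KO (9) gave 3, 1 and 0 in the same order, 15 with a trended, robust variance and 0 to 7 over removals. R47H minus CV (86) gave 48 with no filter, 9 with the 75th percentile filter, 5 with every probe set and 9 to 132 over removals. Female minus male (7) gave 3 with the 75th percentile filter and 3 to 5 over removals.

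Mice of the same number were not treated as pairs, since 2 of the 9 correlations of their deviations from group means did not exceed 0.1. The other 7 did, against 3 of the 18 between different numbers. Sex was not removed from these deviations, and mouse 1 was the only female of each group. The correlations between mice 1 (0.362, 0.319 and 0.327) therefore also reflect sex, which the model holds. For mice 2 and 3, correlations within a number ran from -0.0401 to 0.213, and any likeness by number beyond sex was left unmodelled. Correlations within a number ran from -0.0401 to 0.362 (median 0.197), against -0.392 to 0.214 (median -0.16) for different numbers. Of the 9 mice, 5 correlated best with their own number. With the replicate block, Flt1 R47H minus KO kept its value of 0.74 (limma, adjusted p = 0.312).

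Of 487 member values under alternatives, 21 changed sign, all of values not called. Nrp2 CV minus KO (0.0066) was -0.0095 with quantile normalization, -0.019 with array medians subtracted and -0.0082 to 0.043 over single removals. Kdr female minus male was 0.014 with quantile normalization and 0.019 with array medians subtracted, and -0.12 to 0.049 over single removals. Over removals Vegfa R47H minus KO was -0.0053 to 0.44, Pgf R47H minus KO -0.0078 to 0.079, Nrp2 R47H minus KO -0.030 to 0.077, Nrp2 R47H minus CV -0.036 to 0.070 and Kdr R47H minus CV -0.075 to 0.18. Among other genes it was -0.13 to 0.13 for Ndrg1 and -0.051 to 0.015 for Arnt in CV minus KO, and -0.19 to 0.0032 for Prkca, -0.15 to 0.075 for Eng and -0.0086 to 0.050 for Hif1a in R47H minus KO. The cause was not tested.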
